A study of Mus musculus with 12 samples.

Results

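Macrophages recognise fungi, mycobacteria and dying cells in part through C-type lectin receptors, and the response of 10 genes of this family to oxLDL and LPS was followed in mouse PMφs. The genes were Clec4d, Clec4e, Clec4n, Clec7a, Clec4a2, Clec4a3, Clec5a, Clec10a, Clec12a and Mrc1, chosen by symbol from the 43278 gene symbols of the deposited table. Each of the 10 had a row, and each passed the filter on low values in every comparison.

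PMφs are the macrophages that enter the peritoneal cavity after an injection of thioglycolate. They were taken by lavage 4 days after 1 ml of aged 4% thioglycolate, from wild-type mice of both sexes that the study's methods give as young adult C57BL/6J littermates. Cells of several mice were pooled and divided among the groups, and adherent cells were used after 18 h in culture. Poly(A) RNA was sequenced from 12 libraries in 4 groups of 3. These were control PMφs, PMφs given 100 µg/ml human medium oxidized LDL for 24 h (oxLDL), PMφs given 10 ng/ml ultrapure LPS (LPS), and PMφs given that oxLDL and then that LPS (oxLDL+LPS). The time in LPS is not stated for these libraries. Oxidized LDL is the modified lipoprotein that macrophages take up in atherosclerotic plaques, and LPS is the bacterial ligand of TLR4. Nothing in the labels says whether replicates with different numbers came from separate mice, so the p-values measure only the spread between these libraries.

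The values are read counts that the authors scaled by a factor per library and rounded. They are called scaled values here, and they sum to 17152972 to 17709731 in the 6 libraries without LPS and to 22071853 to 26384551 in the 6 with LPS. The spacing of the values implies an estimated 16725623 to 26178592 counted reads per library. A scaled value is thus an estimated 0.76 (oxLDL replicate 3) to 1.41 (LPS replicate 3) times the number of reads behind it. The macrophage identity of the libraries was clear, since the 7 macrophage markers summed to between 230743 and 324472 in every library. Markers of neutrophils summed to at most 260, of dendritic cells to at most 144, of eosinophils to at most 385 and of T cells to at most 239, with Ly6g at 0 in all 4 groups and Epx and Prg2 at 0 in control and oxLDL+LPS libraries. Mesothelial and fibroblast markers followed the replicate number in all 4 groups. Their sums were 15612 to 27474 in number 1, 13228 to 15911 in number 2 and 4419 to 5274 in number 3. Within number 1 the sum was 27474 in the LPS and 15612 in the oxLDL+LPS library. Eosinophil markers summed to 319 to 385 in control and 182 to 305 in oxLDL libraries. The part of these cells in the values below was not tested, and in bulk RNA fewer cells of a type and less RNA per cell cannot be told apart.

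C-type lectin receptors carry a lectin-like domain outside the cell and differ in how they signal. Mincle (Clec4e), which binds mycobacterial cord factor, MCL (Clec4d), which pairs with Mincle, and Dectin-2 (Clec4n), a receptor for fungal mannan, signal through the adaptor FcRγ. MDL-1 (Clec5a) uses the adaptors DAP12 and DAP10. Dectin-1 (Clec7a), the receptor for fungal β-glucan, carries its own activating tail. These receptors feed into the kinase Syk, the adaptor protein Card9 and NF-κB. Dcir1 (Clec4a2) and MICL (Clec12a) carry inhibitory tails, Clec4a3 is a relative of Clec4a2, and the galactose-binding Mgl1 (Clec10a) and the mannose receptor CD206 (Mrc1) are endocytic lectins known as marks of alternatively activated macrophages.

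Of the 10 genes, 8 lie on mouse chromosome 6, Clec10a lies on chromosome 11 and Mrc1 on chromosome 2 (GRCm38, GENCODE M21). Clec4a3 (chr6:122952515-122969875), Clec4a2 (chr6:123106428-123143999), Clec4n (chr6:123229843-123247021) and Clec4d (chr6:123262111-123275265) lie in this order on the plus strand, and Clec4e (chr6:123281789-123289870) follows on the minus strand. The ends of Clec4d and Clec4e face each other across 6.52 kb. Clec12a (chr6:129342691-129365303, plus strand) and Clec7a (chr6:129461591-129472779, minus strand) belong to a separate cluster, and Clec5a (chr6:40574894-40585821, minus strand) stands alone. Clec10a spans chr11:70156197-70170834 and Mrc1 chr2:14229392-14332057, each on the plus strand. GENCODE M21 gives Clec7a as a polymorphic pseudogene and the other 9 as protein-coding, and no exon of the 10 overlaps an exon of another annotated gene. Stretches of 100 bases were unique to the gene for 8 of the 10. Of the stretches of Clec4a2, 2.14% were also in Clec4a4, and of those of Clec10a, 2.64% were also in Mgl2, so these values are uncertain to that extent.

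Upstream sequence from RefSeq (GRCm38.p6) was at hand for 8 of the 10 genes, Clec4n and Clec10a being the other two. The 250 bases before the start are given for the 4 genes called higher with LPS and, beside them, for Clec7a, the neighbour of Clec12a that was called lower. Capitals mark matches, on either strand, to TTGCNNAA (C/EBP), TGANTCA (AP-1), GAGGAAG (PU.1), TATAAA and the NF-κB consensus.
Clec4e, chr6:123289872-123290121, minus strand: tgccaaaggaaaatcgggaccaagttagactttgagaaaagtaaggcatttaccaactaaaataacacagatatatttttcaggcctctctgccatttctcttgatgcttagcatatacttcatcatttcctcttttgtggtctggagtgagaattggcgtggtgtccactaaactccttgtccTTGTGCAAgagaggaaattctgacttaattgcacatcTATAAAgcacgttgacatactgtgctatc
Clec4d, chr6:123261857-123262106, plus strand: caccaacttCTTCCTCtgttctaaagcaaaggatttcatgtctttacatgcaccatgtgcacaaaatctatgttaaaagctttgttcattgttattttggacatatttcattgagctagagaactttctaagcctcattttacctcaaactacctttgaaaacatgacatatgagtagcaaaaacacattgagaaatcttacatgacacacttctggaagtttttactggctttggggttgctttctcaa
Clec5a, chr6:40585806-40586055, minus strand: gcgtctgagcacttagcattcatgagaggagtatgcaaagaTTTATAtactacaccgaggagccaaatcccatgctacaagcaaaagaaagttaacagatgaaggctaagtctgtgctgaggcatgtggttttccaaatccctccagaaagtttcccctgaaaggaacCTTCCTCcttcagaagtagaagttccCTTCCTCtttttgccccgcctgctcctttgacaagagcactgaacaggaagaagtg
Clec12a, chr6:129349994-129350243, plus strand: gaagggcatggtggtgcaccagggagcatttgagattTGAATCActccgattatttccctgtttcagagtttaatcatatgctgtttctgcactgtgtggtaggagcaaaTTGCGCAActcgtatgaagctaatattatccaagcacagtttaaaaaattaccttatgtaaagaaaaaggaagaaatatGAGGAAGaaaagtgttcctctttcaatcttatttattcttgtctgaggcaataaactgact
Clec7a, chr6:129472780-129473029, minus strand: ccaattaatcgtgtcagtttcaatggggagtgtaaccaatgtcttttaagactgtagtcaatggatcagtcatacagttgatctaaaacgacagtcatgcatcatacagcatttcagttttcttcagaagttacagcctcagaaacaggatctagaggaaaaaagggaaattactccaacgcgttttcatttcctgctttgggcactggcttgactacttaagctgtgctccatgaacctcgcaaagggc
The Clec4e window holds a C/EBP match at positions -66 to -59 from the start and TATAAA at -29 to -24, while the Clec12a window holds a C/EBP match at -140 to -133, an AP-1 match at -213 to -207 and a PU.1 match at -61 to -55. The RefSeq start of Clec12a lies inside the GENCODE gene. The Clec5a window holds PU.1 matches at -82 to -76 and -56 to -50 and TATAAA on the other strand, Clec4d holds a PU.1 match at -241 to -235, and none of these letters is in the Clec7a window. Among the 8 genes, 2 held the C/EBP letters, 4 PU.1, 1 AP-1 and 3 TATAAA, against 9.56%, 10.6%, 6.75% and 12.4% of all 32851 promoter windows. Mrc1, not called with LPS, is among those with PU.1, and Clec4a2, called lower, among those with TATAAA. Antioxidant response letters (TGANNNNGC), not in capitals, are in Clec7a at -70 to -62, in Clec4d at -10 to -2 and in 35.2% of all windows. STAT letters (TTCNNNGAA) are in Clec4a2 and in 7.02% of all windows. The NF-κB consensus was in 0 of the 8 windows and in 7.25% of all windows. A match in so short a window is a description of its letters, not a binding site.

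The genes covered a wide range of levels. To compare genes, scaled values were divided by the kilobases of annotated exon, with the exons of all GENCODE M21 transcripts of a gene joined. The paper's methods give an earlier GENCODE release for the counts. How far the order depends on these choices was not tested. Among control PMφs, Clec7a was highest, with a mean of 4790 per kb, followed by Clec4d with 2590 per kb and Mrc1 with 530 per kb. The libraries did not overlap between Clec7a and Clec4d, or between Clec4d and Mrc1, but they did between Mrc1, Clec4a3 (386 per kb) and Clec12a (347 per kb). Clec4a2 (86.4 per kb), Clec5a (74.7 per kb), Clec4e (73.8 per kb), Clec4n (50.5 per kb) and Clec10a (31.8 per kb) were lower, and each overlapped the next in this order. In LPS-treated PMφs the order was led by Clec4e with a mean of 12700 per kb, above Clec4d with 6300 per kb and Clec7a with 2460 per kb, with no overlap between them. Clec4e was thus the eighth of the 10 in control PMφs and the first after LPS. With oxLDL alone Clec4d (4170 per kb) and Clec7a (4120 per kb) led and overlapped, and with oxLDL+LPS Clec4e (12500 per kb) and Clec4d (10400 per kb) led and overlapped. Clec10a was last in all 4 groups.

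**Figure D1:**
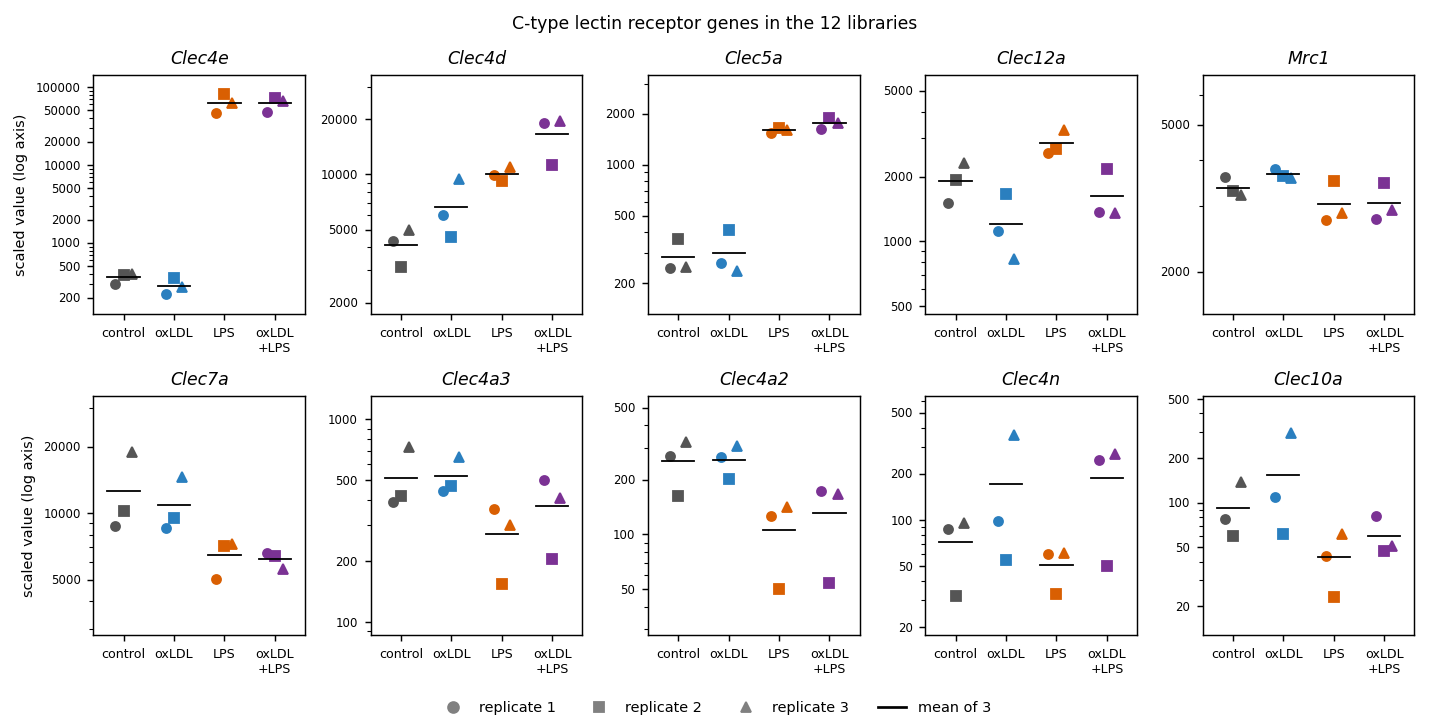
Scaled value (log axis, a scale of its own for each gene) of the 10 C-type lectin receptor genes in the 12 libraries; marker shapes are replicates 1 to 3 and lines are means of 3. Clec4e lies at 220 to 405 in the 6 libraries without LPS and at 46359 to 80326 in the 6 with LPS, and replicate 2 of Clec4n, Clec4a2 and Clec10a is the lowest of its group in all 4 groups.

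LPS raised the genes of Mincle, MCL and MDL-1 and lowered those of Dectin-1 and Dcir1. In LPS against control, 4 of the 10 genes were called higher (Clec4e, Clec5a, Clec4d and Clec12a) and 4 lower (Clec4a2, Clec10a, Clec4a3 and Clec7a), at a Benjamini-Hochberg adjusted p under 0.1 from limma on log2(scaled value + 1). Of all 13023 genes tested, 31.4% were called higher and 30.3% lower, so the share of receptor genes called is not far from that of the whole table. The median log2 fold change was -0.26 over the 10 genes and -0.001 over all genes. LPS libraries sum to more than control libraries. Setting each library to the same total moved the median of all genes to -0.48, and quantile normalization moved it to -0.14, and the share of calls that were higher went from 50.9% to 23.5% and 40.2%. Of the receptor genes, 3 were called higher and 5 lower with equal totals, and 3 and 4 after quantile normalization. Of all 13023 genes, 2210 were called higher and 7200 lower with equal totals, and 3243 and 4816 after quantile normalization. Directions are given relative to the deposited scaling, and the receptor genes whose call depends on it are named.

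Clec4e, which encodes Mincle, had scaled values of 301, 393 and 405 in control and 46359, 80326 and 62416 in LPS libraries, in the order of the replicate numbers. It rose 169-fold (log2 fold change 7.40 ± 0.21 SE, adjusted p = 2.4e-07, limma). Every LPS library was over 100 times every control library. Clec4d, which encodes MCL, had 4345, 3113 and 4950 in control and 9977, 9256 and 10984 in LPS libraries. It rose 2.47-fold (log2 fold change 1.31 ± 0.17, adjusted p = 0.00046), with no overlap between the groups. Although adjacent and facing each other, the Mincle and MCL genes thus differed in the size of their rise, with 95% intervals of 6.92 to 7.88 and 0.90 to 1.71 on the log2 scale.

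Clec5a, the DAP12-coupled receptor MDL-1, had 245, 366 and 250 in control and 1528, 1641 and 1605 in LPS libraries. It rose 5.62-fold (log2 fold change 2.49 ± 0.16, adjusted p = 1.1e-05), and the LPS libraries were close together. Clec12a, the inhibitory receptor MICL, had 1507, 1932 and 2309 in control and 2578, 2671 and 3297 in LPS libraries. The groups did not overlap and the log2 fold change was 0.58 ± 0.17 (adjusted p = 0.020). This rise depended on the scaling, since it was 0.10 (adjusted p = 0.56) with libraries set to the same total and 0.12 (adjusted p = 0.55) after quantile normalization. The rises of Clec4e, Clec5a and Clec4d were called under each of these scalings, with Clec4d the smallest at 0.67 after quantile normalization.

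Clec7a, the β-glucan receptor, had 8779, 10226 and 18909 in control and 5045, 7137 and 7289 in LPS libraries. Each LPS library was below each control library, and the control library of replicate 3 stood well above the other two. The log2 fold change was -0.90 ± 0.29 (adjusted p = 0.031) and became larger in size, -1.38 and -1.63, under the other scalings. Clec4a2, the inhibitory Dcir1, had 271, 163 and 324 in control and 126, 50 and 141 in LPS libraries, again without overlap. Its log2 fold change was -1.33 ± 0.42 (adjusted p = 0.029). Within each replicate number Clec4a2 fell by a similar factor, to between 0.307 and 0.465 of the control value.

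Clec4a3 had 389, 421 and 727 in control and 360, 155 and 302 in LPS libraries. The log2 fold change was -0.94 ± 0.35 (adjusted p = 0.054), and the ratio of LPS to control was 0.925 in number 1 against 0.368 and 0.415 in numbers 2 and 3. The call was lost without control replicate 3 (log2 fold change -0.66, adjusted p = 0.16) or LPS replicate 2 (-0.58, adjusted p = 0.13). Clec10a, the galactose-type lectin, had 78, 60 and 139 in control and 44, 23 and 62 in LPS libraries, which overlap. Its log2 fold change of -1.10 ± 0.43 (adjusted p = 0.061) was lost without control replicate 1 (adjusted p = 0.10), control replicate 3 (adjusted p = 0.18) or LPS replicate 2 (adjusted p = 0.16), after quantile normalization (-0.92, adjusted p = 0.13) and with all 12 libraries in the fit (adjusted p = 0.10). All 3 replicate numbers were lower with LPS for Clec4a3 and for Clec10a. With the replicate number as a block, limma gave an adjusted p of 0.013 for Clec4a3 and 0.0023 for Clec10a. In the blocked fit both were called also without each number in turn, in fits of 4 libraries with 1 residual degree of freedom.

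Mrc1 and Clec4n were not called with the deposited scaling. Mrc1, the mannose receptor, had 3606, 3300 and 3216 in control and 2759, 3514 and 2886 in LPS libraries, with a log2 fold change of -0.15 ± 0.11 (adjusted p = 0.30). It was called lower with libraries set to the same total (-0.63, adjusted p = 0.0025), after quantile normalization (-0.69, adjusted p = 0.0013) and without LPS replicate 2 (-0.26, adjusted p = 0.061). Clec4n, or Dectin-2, had only 87, 32 and 96 in control and 60, 33 and 61 in LPS libraries. The groups overlap, the log2 fold change was -0.38 ± 0.45 (adjusted p = 0.51), and without control replicate 2 it was -0.87 (adjusted p = 0.067). With the replicate number as a block, the 8 genes named above were called in the same directions. Some markers of other cells moved between these groups too. The 4 eosinophil markers summed to 319 to 385 in control and 104 to 125 in LPS libraries, with Prg2 at 0 in each group and only Siglecf high enough to test. The 7 dendritic cell markers summed to 73 to 110 and 116 to 144, with 2 called higher and 1 lower of 3 tested. The 4 markers of large peritoneal macrophages summed to 322 to 528 and 476 to 843, with 2 called higher. The 10 neutrophil markers summed to 83 to 106 and 83 to 181, which overlap. The 5 T cell markers summed to 20 to 21 and 103 to 239, of which only Lck could be tested. Their part in the receptor values was not tested.

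**Figure D2:**
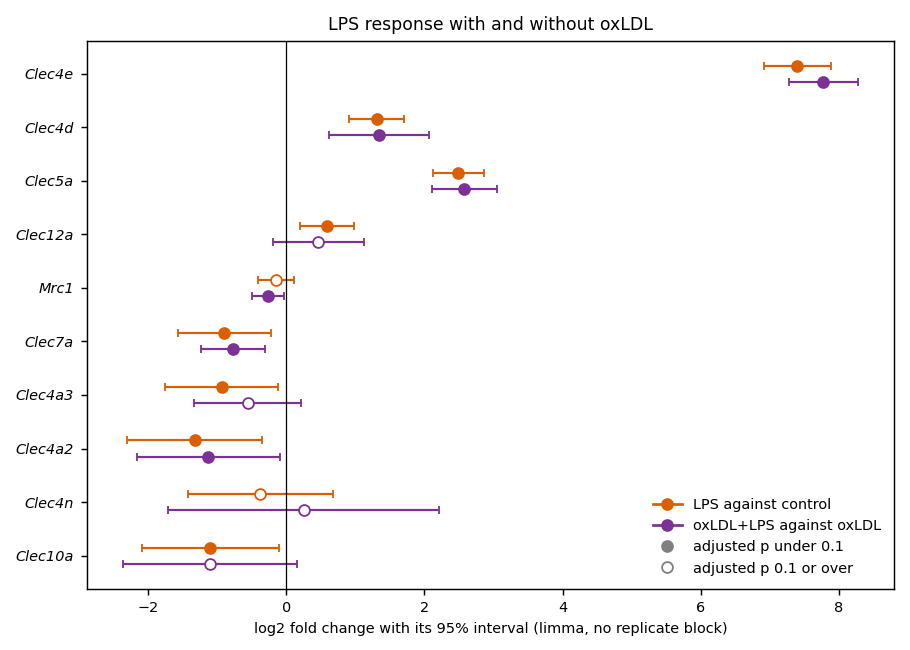
Log2 fold change of each receptor gene with its 95% interval (limma without the replicate block, 3 against 3 libraries) for LPS against control and for oxLDL+LPS against oxLDL; filled circles have an adjusted p under 0.1. Clec4e, Clec5a and Clec4d lie to the right of 0 and Clec7a and Clec4a2 to the left in each comparison, and the paired intervals of all 10 genes overlap.

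In PMφs that had first been given oxLDL, LPS again raised Clec4e, Clec5a and Clec4d and lowered Clec7a and Clec4a2, and Mrc1 fell. In oxLDL+LPS against oxLDL, 3 of the 10 genes were called higher and 3 lower, where 28.2% of the 12900 genes tested were called higher and 26.3% lower. With the replicate number as a block, 4 were called higher and 5 lower, against 32% and 31.4% of all genes. Clec4e had 220, 353 and 275 in oxLDL and 47358, 73281 and 65343 in oxLDL+LPS libraries, a log2 fold change of 7.77 ± 0.21 (adjusted p = 4.3e-07). Clec5a had 261, 411 and 236 in oxLDL and 1632, 1888 and 1765 in oxLDL+LPS libraries, a log2 fold change of 2.58 ± 0.20 (adjusted p = 5.7e-05). For both genes all oxLDL+LPS libraries were above all oxLDL libraries.

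Clec4d had 5998, 4530 and 9476 in oxLDL and 19017, 11286 and 19477 in oxLDL+LPS libraries, a log2 fold change of 1.34 ± 0.31 (adjusted p = 0.0098). The groups did not overlap, but the call was lost after quantile normalization (0.68, adjusted p = 0.14). Clec7a had 8531, 9529 and 14527 in oxLDL and 6585, 6417 and 5619 in oxLDL+LPS libraries, again without overlap, with a log2 fold change of -0.77 ± 0.20 (adjusted p = 0.015). Clec4a2 went from 266, 203 and 308 to 173, 54 and 167, with a log2 fold change of -1.13 ± 0.44 (adjusted p = 0.072). That call was lost without oxLDL replicate 1 (adjusted p = 0.16) or replicate 3 (adjusted p = 0.18). With the replicate number as a block, Clec4a2 had an adjusted p of 0.0091 (limma).

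Mrc1 went from 3794, 3624 and 3576 in oxLDL to 2766, 3477 and 2929 in oxLDL+LPS libraries and was called lower (log2 fold change -0.27 ± 0.10, adjusted p = 0.065). The groups did not overlap, but the call was lost in 5 of the 6 fits that left out a library, all but the one without oxLDL+LPS replicate 2, and with no filter on low values (adjusted p = 0.11). Under the planned settings with all libraries, its log2 fold change lay between -0.73 and -0.27. The other scalings called Mrc1 lower in LPS against control too. The block called Mrc1 lower in oxLDL+LPS against oxLDL, but not without number 1 (adjusted p = 0.14) or number 3 (adjusted p = 0.21). The block called Clec12a, Clec4a3 and Clec10a in addition, and equal totals called the last 2. Clec12a (1121, 1660 and 829 against 1373, 2162 and 1357) was higher by 0.46 on the log2 scale (adjusted p = 0.0084), but its groups overlap. Under the planned settings with all libraries, its log2 fold change went as low as 0.071 and its adjusted p (limma) as high as 0.84. Clec4a3 (444, 470 and 654 against 501, 205 and 411) had a log2 fold change of -0.56 (adjusted p = 0.091), and Clec10a (109, 62 and 293 against 81, 47 and 51) of -1.11 (adjusted p = 0.065). In the blocked fit Clec4a3 was lost without number 2 (-0.25, adjusted p = 0.35) or number 3 (adjusted p = 0.29), and Clec10a without number 3 (-0.41, adjusted p = 0.22). Clec4n (99, 55 and 359 against 247, 50 and 268) was not called in either fit, and its groups overlap. Replicate 3 of oxLDL stood above the other oxLDL libraries for Clec10a and for Clec4n.

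Whether oxLDL changed the LPS response was tested as an interaction over all 12 libraries. None of the 10 genes was called, with or without the replicate block, and 0% of the 13482 genes tested were called by limma with the block, where 967 had an unadjusted p under 0.05. Clec4e had the smallest p of the 10 with the block, with a difference between the LPS responses of 0.38 (95% interval 0.11 to 0.64, adjusted p = 0.66 from limma across all genes). For Clec4d the difference was 0.03 with an interval of -0.40 to 0.47, and for Clec4n 0.63 with an interval of -0.50 to 1.76.

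oxLDL alone moved fewer of the genes, and these were called only when replicate numbers were fitted as blocks. In oxLDL against control, 0% of the 12751 genes were called without a block (381 had an unadjusted p under 0.05, among them Clec12a). Same-numbered libraries deviated together from their group means, so that the numbers pair them. In the blocked fit 2 of the 10 genes were called higher (Clec4d and Clec4n) and 2 lower (Clec12a and Clec4e), where 1.8% of all genes were called higher and 2.92% lower. These were 601 genes, against 214, 139 and 1285 without numbers 1, 2 and 3, in fits of 4 libraries with 1 residual degree of freedom.

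Clec4d was 1.38, 1.46 and 1.91 times its control value with oxLDL in numbers 1, 2 and 3. Its blocked log2 fold change was 0.65 ± 0.08 (adjusted p = 0.0014). It was called also without each number in turn, though those fits have 1 residual degree of freedom. Clec12a was 0.744, 0.859 and 0.359 times its control value, a log2 fold change of -0.71 ± 0.17 (adjusted p = 0.059). All 3 numbers were lower, number 3 by the most, and the call was lost without number 1 (adjusted p = 0.11). Clec4e, low in these groups, was 0.731, 0.898 and 0.679 times its control value, a log2 fold change of -0.39 ± 0.09 (adjusted p = 0.041), and was not called without number 1 (adjusted p = 0.21).

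Clec4n went from 87, 32 and 96 to 99, 55 and 359, a log2 fold change of 0.95 ± 0.25 (adjusted p = 0.076). Number 3 rose 3.74-fold and number 1 only 1.14-fold, and the call was lost without number 2 (adjusted p = 0.26) or number 3 (adjusted p = 0.14). Clec10a was higher in all 3 numbers too, but was not called (log2 fold change 0.53, adjusted p = 0.14) unless number 2 was left out (0.77, adjusted p = 0.099). The mean log2 differences of Clec7a, Clec4a2, Clec4a3, Clec5a and Mrc1 lay between -0.17 and 0.12, with blocked 95% intervals between -0.32 and 0.28, and none was called with all libraries. Mrc1 was called higher without number 3 (0.10, adjusted p = 0.087).

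In PMφs that also received LPS, the same comparison gave 0% of 12786 genes called without the block, although 890 had an unadjusted p under 0.05, among them Clec4d, Clec4n and Clec12a. With the block, 3 of the 10 genes were called higher in oxLDL+LPS than in LPS (Clec4n, Clec4d and Clec4a3) and 1 lower (Clec12a), where 4.42% of all genes were called higher and 8.74% lower. Without number 1 or number 3, none of the 4 was called, and over all genes 71 and 0 were called in place of 1682. Without number 2, all 4 were called and 2945 genes in all. Each of these fits without a number has 4 libraries and 1 residual degree of freedom, so its count of calls is uncertain. Leaving out replicate 2 of oxLDL+LPS alone, the fit without the block called 91 genes, among them Clec4d (log2 fold change 0.94), Clec4n (2.36) and Clec12a (-1.05).

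Clec4d was 1.91, 1.22 and 1.77 times its LPS value when oxLDL had been given, and the oxLDL+LPS libraries were all above the LPS libraries. The blocked log2 fold change was 0.68 ± 0.13 (adjusted p = 0.017). Clec4n was 4.12, 1.52 and 4.39 times its LPS value, from 60, 33 and 61 to 247, 50 and 268, a log2 fold change of 1.58 ± 0.27 (adjusted p = 0.013). Replicate 2 of oxLDL+LPS remained within the range of the LPS libraries. Clec12a was 0.533, 0.809 and 0.412 times its LPS value, with 1373, 2162 and 1357 in oxLDL+LPS against 2578, 2671 and 3297 in LPS libraries and no overlap. Its log2 fold change was -0.83 ± 0.15 (adjusted p = 0.014).

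Clec4a3 was higher by a nearly equal factor in the 3 numbers, 1.39, 1.32 and 1.36, with a log2 fold change of 0.44 ± 0.09 (adjusted p = 0.026). Clec4e was level, at 1.02, 0.912 and 1.05 times its LPS value (log2 fold change -0.01, 95% interval -0.33 to 0.31), and so was Mrc1, at 1.00, 0.989 and 1.01 (interval -0.15 to 0.16). Clec5a was 1.07, 1.15 and 1.10 times its LPS value and was not called (adjusted p = 0.25). Clec4a2 (adjusted p = 0.28), Clec10a (adjusted p = 0.26) and Clec7a (adjusted p = 0.86) were not called either.

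**Figure D3:**
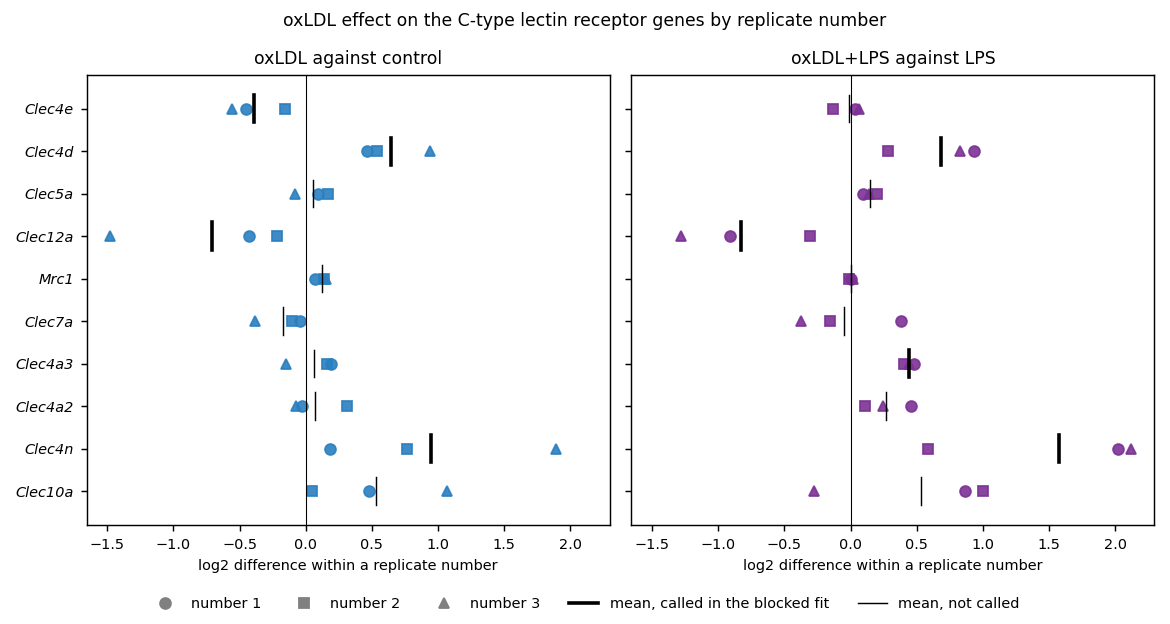
Log2 difference made by oxLDL within each replicate number (marker shapes), without LPS on the left and with LPS on the right; the bar is the mean of 3, thick where the gene was called in the fit with the replicate block. Clec4d and Clec4n lie above 0 and Clec12a below 0 in all 6 pairs, with Clec12a at -1.48 in number 3 without LPS and Clec4n at 2.12 in number 3 with LPS.

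The protein-coding genes that lie between the receptor genes on chromosome 6 also belong to the family. From Clec4a3 to Clec4e, 337.4 kb hold 8 protein-coding genes, of which 5 were tested in LPS against control, and these are 5 of the 10 receptor genes. Clec4a4 reached at most a scaled value of 4 and Clec4b1 of 16, and Clec4b2 was at 0. Along this stretch Clec4a3 and Clec4a2 were called lower, Clec4n was not called, and Clec4d and Clec4e, the last 2, rose. From Clec12a to Clec7a, 130.1 kb hold 6 genes that code for protein or are given as a polymorphic pseudogene, and 4 were tested. Between the 2 receptor genes, Clec1b (log2 fold change -1.48 ± 0.37, adjusted p = 0.011) and Clec9a (-2.16 ± 0.46, adjusted p = 0.0053) fell with LPS from low values, at most 66 and 37, and Clec12b and Clec1a were too low to test.

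**Figure D4:**
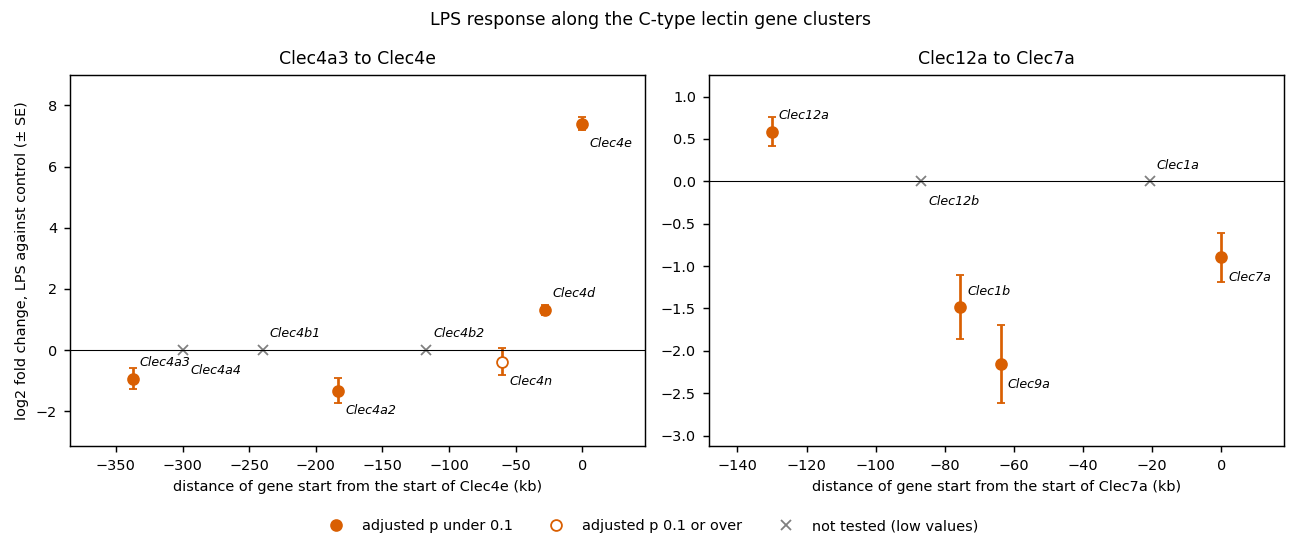
Log2 fold change for LPS against control (± SE) against the distance of each gene's start from that of Clec4e (left) or Clec7a (right); filled circles have an adjusted p under 0.1, and crosses, set at 0 for placement only, are genes with values too low to test. On the left only Clec4d (1.31) and Clec4e (7.40) lie above 0, and on the right only Clec12a (0.58).

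The genes that carry the receptors' signals were followed with a list of 34. In LPS against control 21 were called higher and 10 lower (median log2 fold change 0.51, against -0.001 over all genes), where 31.4% of all genes were called higher and 30.3% lower. With libraries set to the same total these were 16 and 13, with a median of 0.03, and after quantile normalization 16 and 11. Of the adaptors, Fcer1g, which encodes FcRγ, had 6491 to 8690 in control and 14702 to 20797 in LPS libraries and rose 2.37-fold (adjusted p = 5e-04). Tyrobp, which encodes DAP12, had 9261 to 13955 in control and 7948 to 11330 in LPS libraries and was not called (log2 fold change -0.30, adjusted p = 0.22). Hcst, which encodes DAP10, was low, at 128 to 187 in control and 97 to 154 in LPS libraries, and was not called (-0.34, adjusted p = 0.24). The block called Tyrobp (adjusted p = 0.039) and Hcst (adjusted p = 0.064) lower. With equal totals and after quantile normalization Fcer1g was still called higher (0.76 and 0.36), and Tyrobp was called lower (-0.78 and -1.06). Hcst was called lower too with equal totals.

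All 8 kinases of the list were called higher, and 6 of the 8 were with libraries set to the same total or after quantile normalization. The other two were not called higher under these scalings. Of these Btk, the smallest rise (0.25, adjusted p = 0.0996), had -0.23 with equal totals and was called lower (adjusted p = 0.078). Syk had 8341 to 8968 in control and 23187 to 30074 in LPS libraries, a 3-fold rise (log2 fold change 1.59 ± 0.12, adjusted p = 3e-05). The kinase genes Src (log2 fold change 3.44) and Lyn (2.21) rose with it. Card9 itself fell, from 825 to 1014 in control to 400 to 470 in LPS libraries (log2 fold change -1.06 ± 0.12, adjusted p = 0.00019), while its partners Malt1 (4.10) and Bcl10 (1.12) rose and Rubcn, which binds Card9, fell (-0.52). Traf6, an E3 ubiquitin ligase of this branch, was called higher (0.35, adjusted p = 0.094), but not with libraries set to the same total, where it was -0.13. The transcription factor genes Nfkb2 (4.74), Nfkb1 (3.22) and Relb (2.80) rose and Nfatc2 (-2.96) fell. Of the genes listed as phosphatases and ligases, Ptpn22 (-2.83), Inpp5d (-2.11) and Cblb (-0.91) fell and Ptpn6 (1.65) and Ptpn11 (0.73) rose. The exchange factor Rasgrp3 fell furthest (-5.20), Plcg2 (-0.28) and Vav3 (-0.38) fell too, and Vav1 (0.34) was called higher with the deposited scaling but had -0.14 and -0.15 under the other scalings.

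In oxLDL+LPS against oxLDL, 20 of the 34 were called higher and 10 lower, where 28.2% of all genes were called higher and 26.3% lower. Of the 3 adaptor genes, 1 was called higher and 2 lower there, without the block. oxLDL against control called 0 of the 34 without the block, and 3 lower with it, which were Src (-0.34), Cbl (-0.30) and Rel (-0.34). That blocked fit called 1.8% of all genes higher and 2.92% lower. In oxLDL+LPS against LPS the block called 3 higher, among them Inpp5d (0.62) and Ptpn22 (0.77), and 5 lower. The genes called lower were Rel (-0.64), Nfkb2 (-0.41), Nfkb1 (-0.38), Malt1 (-0.32) and Cbl (-0.30). Of all genes, 4.42% were called higher and 8.74% lower in that fit, 1682 genes together. Without number 1 it called 71 genes, and without number 3 it called 0, so none of these calls held there. Fcer1g, Tyrobp, Hcst, Syk and Card9 were called in neither oxLDL comparison.

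Another 64 genes of the C-type lectin superfamily gave a comparison. Most were low, and 22 were tested in LPS against control. Of these 11 were called higher and 6 lower, where 31.4% and 30.3% of all genes were. The activation marker Cd69 (log2 fold change 8.63), the NK receptor gene Klrk1 (5.55) and the oxLDL receptor gene Olr1 (4.96) were among those that rose most, so Clec4e was second only to Cd69 in size among the lectin genes tested. oxLDL against control with the block called Cd302 higher (0.24) and Cd72 lower (-0.26), where 1.8% and 2.92% of all genes were. In oxLDL+LPS against LPS the block called Thbd (0.88) and Clec2i (0.69) higher and Cd69 (-0.84), Klrk1 (-0.77) and Olr1 (-0.58) lower. Of all genes, 4.42% were called higher and 8.74% lower there. Without number 3 that fit called 0 genes, so none of these calls held.

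Mrc1 and Clec10a are often read together with other genes of alternative activation. Of 15 such genes 14 were tested with LPS. The chemokine genes Ccl22 (log2 fold change 7.11) and Ccl24 (3.37) and the receptor gene Il4ra (1.40) were called higher, and 4 were called lower, led by Pparg (-3.59), a lipid-sensing nuclear receptor. The shares over all genes were 31.4% and 30.3%. In oxLDL+LPS against LPS the block called 5 of 14 lower and none higher, where 8.74% and 4.42% of all genes were. These were Ccl22 (-2.40), Ccl17 (-2.24), Ccl24 (-1.51), Folr2 (-0.41) and Il4ra (-0.24). None of them was called without number 3, where that fit called 0 genes. oxLDL against control with the block called Egr2 higher (0.21), where 1.8% of all genes were called higher and 2.92% lower. Neither Mrc1 nor Clec10a was called in an oxLDL comparison with all libraries.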

How the data were processed

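Poly(A) libraries were read as 150-base pairs. Per the labels and the paper's methods, the authors trimmed with Trimmomatic 0.32, aligned to mm10 (GRCm38) with STAR 2.5.1b and counted exonic reads with featureCounts; whether counting used strand is not given in the sources used here. The deposited table holds a signal of whole numbers, gene counts multiplied by a factor per library (0.76 to 1.41) and rounded. The factor was read from the spacing of the values, an estimate whose largest error was 2.13% over 20 simulated libraries. Since reads were not recovered, groups were compared with limma 3.58.1 (R 4.3.3; lmFit, eBayes with trend) on log2(value + 1), tested on simulated data, keeping genes at 10 or more in at least 3 libraries fitted. Only the libraries compared entered a fit. Genes were called at a Benjamini-Hochberg adjusted p under 0.1. The block adds the replicate number. Numbers pair the libraries, because deviations from the group means over 11186 genes correlated at 0.305 to 0.733 in all 18 same-numbered pairs and at -0.53 to 0.071 in 36 others. All 10 receptor genes are named; of other lists, up to 4 called genes with the largest change per comparison, all where 5 or fewer were called, and Fcer1g, Tyrobp, Hcst, Syk and Card9. Genes between receptor genes on chromosome 6, and Btk, were named after their values were seen. Rubcn, Adgre1 and Klrh1 were matched through RefSeq synonyms. The members and lists were chosen with earlier results of these data known. Protein features were planned but not analysed here. Other scalings, filters, a pseudocount of 5, all 12 libraries in a fit and left-out libraries were tried. Some genes that this rule selects are not reported here.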

Additional observations from a re-analysis of the deposited data

How the results depend on the processing

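For receptor genes called without the block, the direction of the log2 fold change held in all 182 refits, the block among them, and 164 kept the call. Of 518 refits of uncalled changes, 55 turned direction. The block, the other filters and all 12 libraries in a fit leave a gene's log2 fold change as it was. In those refits the direction could not turn, so they say nothing about it. Over all genes, LPS against control called 7191 to 9410 genes and oxLDL+LPS against oxLDL 6409 to 8672 under the planned settings, leaving out libraries aside, and the receptor genes called were 7 to 8 and 5 to 9. The replicate block raised oxLDL against control from 0 to 601 genes and 4 receptor genes, and oxLDL+LPS against LPS from 0 to 1682 genes and 4 receptor genes. No other planned setting with all libraries called a gene in these 2 comparisons, and none did in the interaction. The block ended none of the receptor genes' calls. Leaving out a library moved oxLDL+LPS against LPS to between 0 and 91 genes and 0 to 3 receptor genes, and the interaction to between 0 and 6 genes. In these the highest counts came without oxLDL+LPS replicate 2. With the block, leaving out a number gave 139 to 1285 genes and 2 to 4 receptor genes for oxLDL against control (1285 without number 3), 0 to 2945 and 0 to 4 for oxLDL+LPS against LPS (0 without number 3), and 0 to 9 genes for the interaction (9 without number 2).

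Among the receptor genes, only changes that were not called turned direction, and the cause was not tested. In oxLDL+LPS against LPS, quantile normalization gave Clec4e 0.234 and Clec7a 0.0858, and equal totals gave 0.0785 and 0.0421. Equal totals gave Clec4n -0.14 in oxLDL+LPS against oxLDL and the Clec10a interaction 0.0868, and quantile normalization gave the Clec12a interaction 0.0719. Leaving out a library in turn gave, for oxLDL against control, -0.11 to 0.35 for Clec4a3, -0.18 to 0.25 for Clec5a, -0.21 to 0.28 for Clec4a2, -0.40 to 0.16 for Clec7a and -0.0753 to 1.04 for Clec10a, and with the block -0.0498 to 0.14 for Clec4a2. For oxLDL+LPS against LPS it gave -0.093 to 0.11 for Mrc1, -0.22 to 0.18 for Clec4e, -0.22 to 0.0454 for Clec7a and -0.20 to 0.81 for Clec4a2, and with the block -0.0508 to 0.0484 for Clec4e, -0.26 to 0.12 for Clec7a and -0.0058 to 0.0125 for Mrc1. For oxLDL+LPS against oxLDL, Clec4n ran from -0.34 to 1.03, and with the block from -0.28 to 0.59. For the interaction it gave -0.21 to 0.32 for Clec4d, -0.51 to 0.60 for Clec10a, -0.36 to 0.14 for Clec12a, -0.10 to 0.33 for Clec5a, -0.21 to 0.36 for Clec7a and -0.27 to 0.74 for Clec4a2. With the block these were -0.18 to 0.18 for Clec4d, -0.0233 to 0.22 for Clec7a, -0.284 to 0.0553 for Clec12a and -0.48 to 0.67 for Clec10a. Clec4n, Clec4a2 and Clec10a had the lowest values in LPS libraries, 23 to 141, where counting error is largest relative to the value. Changes of genes with far higher values, such as Clec7a and Mrc1, turned direction too. The part of counting error was not tested.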
